A study of Mus musculus with 2 samples.

Results

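The 9 genes described here encode enzymes or enzyme subunits of the tricarboxylic acid cycle, and were taken by gene name from the 55536 Ensembl genes of the gene tables: Cs, Idh2, Idh3a, Ogdh, Suclg1, Sucla2, Sdha, Fh1 and Mdh2. All 9 names were found, each with 1 gene identifier, and all 9 passed a mean level of 1 TPM, a relative abundance that is corrected for transcript length and depth. Where a pair of values is given without further words, replicate 1 comes first. Total RNA, depleted of ribosomal RNA, was taken from heart tissue; the mice were female B6CASTF1/J animals, hybrids between the strains C57BL/6J and CAST/EiJ, aged 18 to 20 months, with no treatment named. There was 1 group with 2 libraries, replicates 1 and 2. The labels name separate biosamples but the same donor entry, so the spread between the libraries may be technical in part. The tables do not separate the parental alleles. With no second group there is no contrast to test, and the data answer how abundant each enzyme mRNA was, which transcripts carried it and how closely the libraries matched.

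The cycle runs in the mitochondrial matrix. It joins acetyl-CoA, made from fatty acids, pyruvate and ketone bodies, to oxaloacetate and oxidises the product step by step, passing electrons to the respiratory chain as NADH and as reduced flavin. Heart muscle draws most of its ATP from such oxidation, and its cells are packed with mitochondria. Several steps need complexes of different subunits, so an enzyme can be limited by a partner gene that is listed separately.

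Expected counts, the estimated reads per gene, totalled 35897521 in replicate 1 and 36926429 in replicate 2, of which the 9 genes held 256266 and 268944. Counts per gene ran from 6424 to 82055, deep enough that counting error was small beside the differences between genes. The heart label fitted its markers: each of the 8 cardiomyocyte markers passed 1 TPM in both libraries, and their levels summed to 41942 and 40076 TPM. The liver markers Alb, Fgb and Serpina1c and the skeletal myosins Myh4 and Myh2 were listed at 0 in both libraries of the RSEM-layout gene table, named for its columns, from which all levels come unless another table is named. Other genes of the skeletal muscle list were expressed, led by Ckm with 1549 and 1459 TPM and Acta1 with 173 and 149.6 TPM, both also known from heart, and the list summed to 1723 and 1609 TPM. Adipocyte markers summed to 41.1 and 319 TPM, erythroid markers to 23409 and 11150 TPM, and airway markers to 0.45 and 237.8 TPM, led by Bpifa1 with 0 and 157 TPM, while the alveolar marker Sftpc was at 0 in both. In bulk tissue, fewer cells of a type and less RNA per cell cannot be told apart.

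All 9 genes were abundant and lay within a narrow band. Their median was 396 ± 6.58 TPM (SD, n = 2, as for every mean below), and together they held 1.06% ± 0.0172 of the TPM of nuclear protein-coding genes. The highest, Idh2, exceeded the lowest, Suclg1, 4.32-fold. Over transcripts with a complete coding sequence alone, Idh2 was again the highest, but Fh1 was the lowest and the range was 7.73-fold. Among 11341 nuclear protein-coding genes at a mean of 1 TPM or more, Idh2 ranked 46 and Suclg1 ranked 292, and the other 7 lay between. From high to low the order was Idh2, Ogdh, Mdh2, Sdha, Cs, Sucla2, Idh3a, Fh1 and Suclg1, and no neighbours in this order overlapped between libraries. The closest neighbours were Ogdh and Mdh2, 1.02-fold apart, and Idh3a and Fh1, 1.05-fold apart. A transcript table with the layout of kallisto, summed per gene, put Ogdh above Idh2 and raised Fh1 above Sucla2 and Idh3a, while Suclg1 stayed lowest, with a range that overlapped that of Idh3a.

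**Figure D1:**
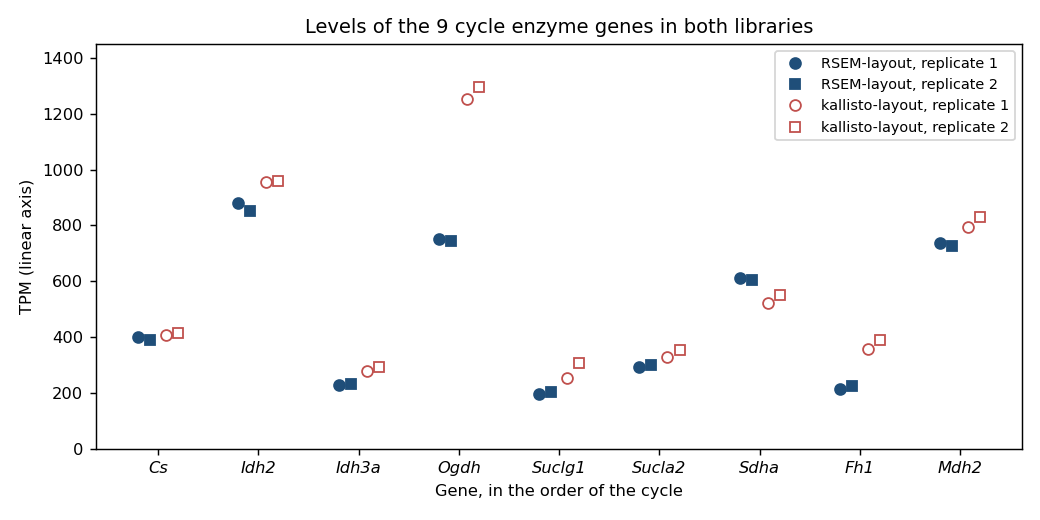
TPM (linear axis) of the 9 genes in the order of the cycle, with filled symbols for the RSEM-layout table, open symbols for the kallisto-layout table, circles for replicate 1 and squares for replicate 2. The 2 libraries nearly coincide in the RSEM-layout table and lie furthest apart for Suclg1 in the kallisto-layout table (255 and 308 TPM), while Ogdh and Fh1 stand 1.70-fold higher in the kallisto-layout table.

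Citrate synthase, which joins acetyl-CoA to oxaloacetate and whose activity is a common measure of mitochondrial content, is encoded by Cs (ENSMUSG00000005683.8, mm10 chromosome 10, 128337734 to 128362479, plus strand). Cs had 401 and 391 TPM, a mean of 396 ± 6.58. Its level hardly depended on the table, with 408 and 416 TPM in the kallisto-layout table. Nearly all of it, 99.9% ± 0.0636, was read from Cs-201, the only complete coding transcript of the gene. Csl, a citrate synthase-like relative, had 1.56 and 1.23 TPM, so Cs exceeded it by 8.06 ± 0.20 on the log2(TPM + 0.1) scale, or 267-fold, and by 8.87 ± 0.10, or 469-fold, in the kallisto-layout table. Csl also holds 8.60% of the 31-nt words of Cs-201. Among the leading complete coding transcripts of the 9 genes, no other shares as large a part with another gene.

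Isocitrate is oxidised in mitochondria by an NAD-linked enzyme built from Idh3a, Idh3b and Idh3g, and by an NADP-linked enzyme encoded by Idh2, which supplies NADPH for antioxidant defence. Idh2 (ENSMUSG00000030541.16, chromosome 7, 80094846 to 80115392, minus strand) had 882 and 851 TPM, the highest level of the 9 genes in this table. Idh3a, the catalytic subunit of the NAD-linked enzyme (ENSMUSG00000032279.11, chromosome 9, 54586334 to 54604661, plus strand), had 228 and 231 TPM. The 2 genes were far apart in both libraries. Idh2 exceeded Idh3a by 1.92 ± 0.050 on the log2 scale, or 3.77-fold, and by 1.74 ± 0.051 in the kallisto-layout table. Idh1, the cytosolic NADP-linked enzyme, had 26.7 and 32.8 TPM, 29.2-fold below Idh2. The regulatory subunits Idh3b, with 315 ± 1.27 TPM, and Idh3g, with 262 ± 1.75 TPM, both exceeded Idh3a, by 1.37-fold and 1.14-fold. The enzyme is known to hold more alpha subunits than beta or gamma subunits, while the mRNA of the alpha subunit was the lowest of the 3 in both tables.

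Idh3a was split between a coding transcript and a transcript annotated as a target of nonsense-mediated decay, the pathway that degrades mRNAs with a premature stop codon. Idh3a-205, which encodes the full protein, took 57.1% of the TPM of the gene in replicate 1 and 52.6% in replicate 2. Idh3a-204 took 41.9% and 44.2%, or 98.9 ± 4.73 TPM. The kallisto-layout table had the reverse order, 61.7% ± 2.73 for Idh3a-204 against 38.0% ± 2.66 for Idh3a-205. Idh3a-204 carries an extra exon of 95 nt (chromosome 9, 54592161 to 54592255) that lies between the second and the third exon of Idh3a-205. The sequences below, both from the GENCODE M21 transcripts, begin with the same last 20 bases of the second exon and show what the extra exon does to the reading frame. In the first, capitals mark the in-frame stop codon inside the extra exon, and in the second they mark the start of the next exon of Idh3a-205.
Idh3a-204: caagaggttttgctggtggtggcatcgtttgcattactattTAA
Idh3a-205: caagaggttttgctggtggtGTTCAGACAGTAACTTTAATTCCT
Both transcripts also differ at their ends (1812 and 2580 nt long), and the tables do not count reads over single exons. The share is therefore that of the whole annotated transcript. Counting complete coding transcripts alone, Idh3a had 126 ± 6.22 TPM, and Idh2 exceeded it by 2.77 ± 0.034 on the log2 scale, or 6.82-fold. On that count the log2 ratio of Idh3a was -1.29 ± 0.079 over Idh3b and -0.97 ± 0.080 over Idh3g, against -0.45 ± 0.0070 and -0.19 ± 0.0032 for the gene levels.

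Oxoglutarate dehydrogenase, the complex that turns 2-oxoglutarate into succinyl-CoA and a point of calcium control in heart, has Ogdh as its first enzyme (ENSMUSG00000020456.17, chromosome 11, 6291633 to 6356642, plus strand). Ogdh had 752 and 745 TPM, and held the most expected counts of the 9 genes, 77506 and 82055. Its partners were lower in both libraries. Dlst, the succinyltransferase core, had 292 ± 10.8 TPM, 2.57-fold below Ogdh. Dld, the dihydrolipoamide dehydrogenase shared with the pyruvate dehydrogenase complex, had 177 ± 4.46 TPM, 4.23-fold below. Mrps36, a small protein that links the subunits, had 77.0 ± 1.31 TPM. Ogdhl, a relative best known from brain, had 33.5 and 27.4 TPM, so Ogdh exceeded it by 4.62 ± 0.20 on the log2 scale, or 24.6-fold, and by 5.28 ± 0.20, or 38.9-fold, in the kallisto-layout table.

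Ogdh was the gene with the largest gap between tables, jointly with Fh1, and short transcripts made up most of it. In the kallisto-layout table Ogdh had 1251 and 1296 TPM. There Ogdh-206 (621 nt) took 23.1% ± 0.178 and Ogdh-207 (702 nt) took 21.3% ± 0.788, both annotated with an incomplete coding sequence and 3 exons in the 5′ part of the gene. In the RSEM-layout table they took 1.23% ± 0.0354 and 7.10% ± 1.11. Ogdh-201, with the complete coding sequence of 3069 nt, led in both tables, with 485 TPM in each library by the RSEM-layout table, against 685 ± 6.73 TPM by the other. Ogdh-204 has the same coding sequence and a first exon that starts 33 nt further downstream. It took 25.1% ± 0.948 in the RSEM-layout table and 1.13% ± 1.57 in the kallisto-layout table. The complete coding transcripts together had 682 ± 3.61 TPM.

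Succinyl-CoA synthetase makes ATP or GTP directly, depending on the beta subunit that joins its shared alpha subunit Suclg1. Suclg1 (ENSMUSG00000052738.14, chromosome 6, 73248382 to 73276911, plus strand) had 197 and 203 TPM. Sucla2, the ATP-forming beta subunit (ENSMUSG00000022110.13, chromosome 14, 73525319 to 73596142, plus strand), had 292 and 302 TPM. Suclg2, the GTP-forming beta subunit, had 63.9 and 65.3 TPM. The ATP-forming subunit thus dominated in both libraries, by 2.20 ± 0.011 on the log2 scale or 4.59-fold, and the ratio was the same in the kallisto-layout table to the second decimal (2.20 ± 0.0024). The alpha subunit was 1.80-fold below the sum of the beta subunits, and 1.48-fold below it in the kallisto-layout table.

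The transcripts of the alpha and beta subunits differed in what they encode. Sucla2 was split between Sucla2-203 with 58.3% ± 0.0212 and Sucla2-201 with 38.1% ± 0.382, which share the whole coding sequence of 1389 nt and differ at their ends. In the kallisto-layout table they were close to even, with 50.2% ± 0.220 and 49.2% ± 0.162. Suclg1-201 took 74.9% ± 1.26 of Suclg1 and 65.2% ± 6.62 in the kallisto-layout table. A further 24.0% ± 0.0849, and 31.1% ± 1.82 in the kallisto-layout table, went to Suclg1-206, an incompletely annotated transcript of 534 nt that lacks 5 whole exons (624 nt) of Suclg1-201 and the first 76 nt of the exon after them. Its join is shown because it brings together bases that Suclg1-201 keeps apart. Lower case is the end of the second exon and capitals are the bases after the junction (chromosome 6, 73275277 to 73275296).
Suclg1-206: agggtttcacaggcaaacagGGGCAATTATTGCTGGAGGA

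Succinate dehydrogenase works both in the cycle and as complex II of the respiratory chain. Its flavoprotein Sdha (ENSMUSG00000021577.14, chromosome 13, 74322254 to 74350280, minus strand) had 610.1 and 603 TPM. The iron-sulfur subunit Sdhb had 508 TPM in both, and the membrane anchors Sdhc and Sdhd had 476 ± 20.3 and 267 ± 12.5 TPM. The anchors were closer in the kallisto-layout table, with 302 ± 3.86 TPM for Sdhc and 277 ± 21.9 TPM for Sdhd. Over complete coding transcripts they had 283 ± 8.46 and 267 ± 12.5 TPM. The order of Sdha and Sdhb depended on what was counted. Sdha was higher by 0.26 ± 0.013 on the log2 scale in the gene table, but the ratio was -0.31 ± 0.0099 in the kallisto-layout table and -0.11 ± 0.0012 over complete coding transcripts. In the RSEM-layout table Sdha-201, the complete coding transcript, took 77.2% ± 0.707, and 22.8% ± 0.773 went to noncoding transcripts, among them Sdha-203 (521 nt) with 77.0 ± 4.48 TPM and Sdha-204 (239 nt) with 56.5 ± 1.68 TPM. Both were at 0 in the kallisto-layout table, where Sdha-201 took 98.8% ± 0.410. The assembly factors, which insert the flavin and the iron-sulfur clusters, were far lower, from 2.02 ± 0.290 TPM for Sdhaf3 to 37.7 ± 1.31 TPM for Sdhaf4.

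Fumarase, which adds water to fumarate, is encoded by Fh1 (ENSMUSG00000026526.14, chromosome 1, 175600374 to 175625635, minus strand). Fh1 had 216 and 223 TPM, but 357 and 391 TPM in the kallisto-layout table. Only 50.7% ± 0.410 was read from Fh1-201, the complete coding transcript, whose own level was close in both tables, 111 ± 3.61 and 107 ± 5.96 TPM. The rest was placed on different short transcripts. The RSEM-layout table gave 32.1% ± 1.92 to Fh1-205 (542 nt, incomplete), while the kallisto-layout table gave it nothing that could be measured. That table gave 36.2% ± 1.02 to Fh1-204 (599 nt, annotated for nonsense-mediated decay) and 34.8% ± 1.31 to Fh1-202 (539 nt, a retained intron). The higher gene level in the kallisto-layout table was thus made up of those short transcripts.

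Malate dehydrogenase closes the cycle by remaking oxaloacetate, and with its cytosolic form Mdh1 and the transaminases Got1 and Got2 it carries reducing equivalents across the inner membrane in the malate-aspartate shuttle. Mdh2 (ENSMUSG00000019179.10, chromosome 5, 135778480 to 135790398, plus strand) had 736 and 726 TPM. Mdh1 was higher than its mitochondrial relative, with 1057 and 996 TPM, 1.40-fold above Mdh2, and 1.16-fold above it in the kallisto-layout table. Mdh1 was also above each of the 9 genes in the RSEM-layout table, but below Ogdh and Idh2 in the kallisto-layout table. Got2 had 290 ± 9.05 TPM and Got1 524 and 414 TPM. In the RSEM-layout table the carriers of the shuttle were lower still, with Slc25a11, which exchanges malate for 2-oxoglutarate, at 239.9 ± 0.969 TPM. In the kallisto-layout table Slc25a11 had 320 and 361 TPM, on either side of Got2 with 333 and 334 TPM. Slc25a12 and Slc25a13, which export aspartate, had 104 ± 4.5 and 56.3 ± 0.163 TPM in the RSEM-layout table. The order of these last carriers held in the kallisto-layout table, with 122 ± 10.8 and 60.2 ± 1.77 TPM. It reversed over complete coding transcripts, with 9.935 ± 0.544 TPM for Slc25a12 and 55.1 ± 0.898 TPM for Slc25a13.

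As for Idh3a, a large share of Mdh2 was placed on a transcript annotated for nonsense-mediated decay. Mdh2-201, which encodes the enzyme, took 60.3% in each library, and Mdh2-203 took 38.9% and 39.2%, or 285 ± 1.58 TPM. In the kallisto-layout table the split was 81.2% ± 0.928 and 14.2% ± 0.702, so the direction held and the size did not. Mdh2-203 lacks the second exon of Mdh2-201, which is coding throughout and 169 nt long (chromosome 5, 135783305 to 135783473), not a multiple of the codon length. That exon is printed first. The second sequence is Mdh2-203 from the last 20 bases of its first exon over the join to the stop codon, in capitals, that the shifted frame meets in the exon that starts at chromosome 5, 135785929.
Mdh2-201: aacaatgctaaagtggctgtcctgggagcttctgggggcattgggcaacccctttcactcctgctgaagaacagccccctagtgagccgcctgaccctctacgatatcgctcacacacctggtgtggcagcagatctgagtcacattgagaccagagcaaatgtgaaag
Mdh2-203: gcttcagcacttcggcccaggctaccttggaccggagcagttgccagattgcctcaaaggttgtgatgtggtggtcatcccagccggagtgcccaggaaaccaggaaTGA
Over complete coding transcripts alone Mdh2 had 441 ± 4.67 TPM, below Sdha with 468 ± 0.375 TPM. Whether the transcripts annotated for decay were in fact degraded or translated was not measured.

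**Figure D2:**
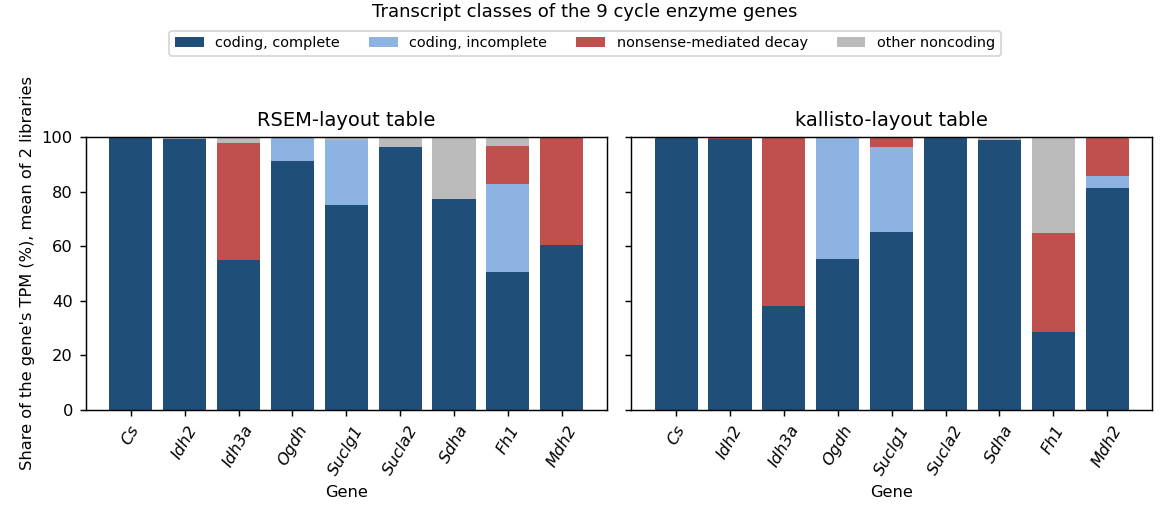
Share of each gene's TPM (%, mean of 2 libraries, bars starting at 0) held by complete coding, incomplete coding, decay-annotated and other noncoding transcripts, in the RSEM-layout (left) and kallisto-layout (right) table. Cs and Idh2 are complete coding in both, while Idh3a, Mdh2 and Fh1 carry decay-annotated shares of 13.8% to 61.7% in both.

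Across the 9 genes the share of complete coding transcripts ranged from 50.7% for Fh1 to 99.9% for Cs, and in the kallisto-layout table from 28.6% for Fh1 to 99.9% for Cs. Cs, Idh2 and Sucla2 were above 96% in both tables, so their gene levels are close to the levels of their coding mRNAs. Idh3a, Fh1, Suclg1 and Mdh2 were under 82% in both, and Sdha and Ogdh depended on the table. For the leading complete coding transcripts, sequence sharing with other genes was small. Of the 9 genes, 6 had no 31-nt word of that transcript in a transcript of another gene, and Fh1 and Mdh2 had 0.537% and 0.631%. Their other transcripts, among them the short and decay-annotated ones, were not checked for sharing. In the genome 5 of the 9 overlap 1 other annotated gene each, and whether counting used strand is not known from the sources used here.

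The other cycle genes had a median of 279.9 ± 10.6 TPM over 10 genes. Their range was 12.4-fold, wider than the 4.32-fold of the 9 genes. Suclg2 was the lowest with 64.6 TPM, and Mrps36, with 77.0 TPM, also lay below each of the 9 genes. Each of the 10 passed 1 TPM in both libraries. Within the complexes the order of subunits differed: Idh3a was below its partners and Ogdh above its partners. Sucla2 was above its alpha partner Suclg1 and above the alternative beta subunit Suclg2. Relatives outside the cycle had medians of 10.4 and 20.5 TPM, and ranged from 0.040 TPM for Mdh1b to 1026 ± 42.6 TPM for Mdh1. Genes of entry, exit and exchange had a median of 54.1 ± 1.05 TPM, from 4.31 ± 0.042 TPM for Me2, a mitochondrial malic enzyme, to 469 ± 77.4 TPM for Got1.

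**Figure D3:**
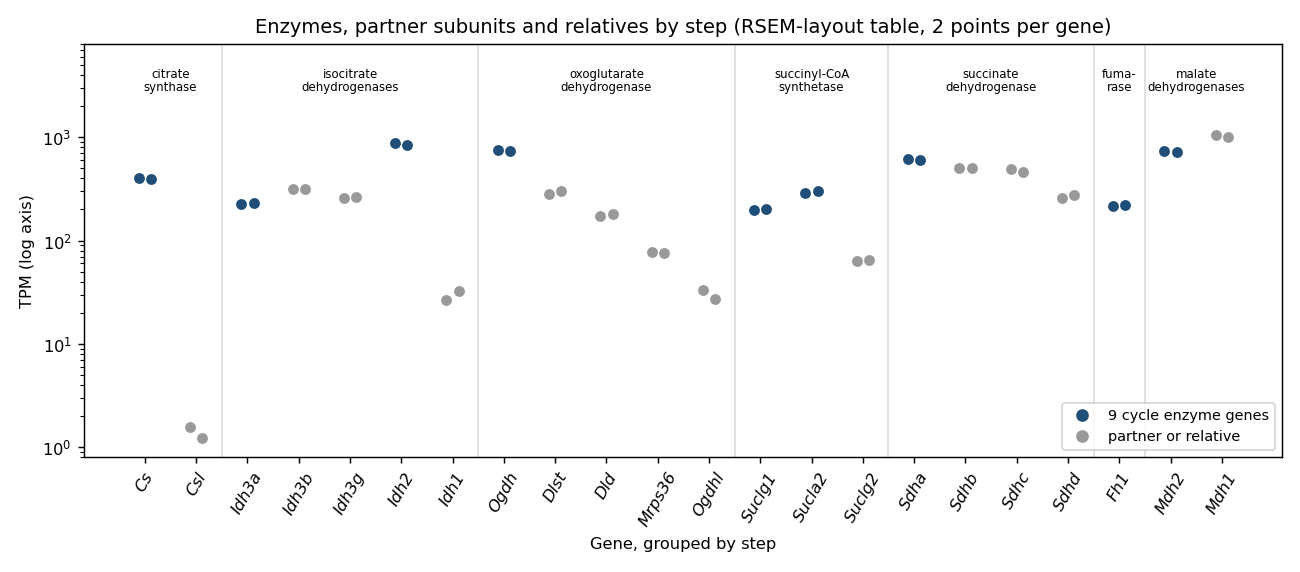
TPM (log axis, RSEM-layout table, left point replicate 1 and right point replicate 2) of the 9 genes in blue and of their partners and relatives in grey, grouped by step of the cycle. The 9 genes lie between 197 and 882 TPM, while Csl, Idh1 and Ogdhl lie under 35 TPM and Mdh1 stands at 1026 TPM.

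The 9 genes were close to equal between the libraries. None was 1.5-fold or more apart, where 10.8% of the 12510 genes at a mean of 1 TPM or more were. Log2 ratios of replicate 2 over replicate 1 ran from -0.05 for Idh2 to 0.05 for Fh1, with 4 higher and 5 lower in replicate 2 and a median of -0.015, beside 0.023 over all genes. The median size of the ratio, without its sign, was 0.034 for the 9 genes, 0.17 for all genes and 0.059 for the 247 nuclear protein-coding genes within the same range of TPM. Of those 247, 3.24% were 1.5-fold or more apart, so genes at this level were closer between the libraries than genes at large. Counting alone gives the log2 ratio an SD from 0.0072 for Ogdh to 0.025 for Suclg1. In the kallisto-layout table all 9 were higher in replicate 2, with a median of 0.077 beside 0.078 over all genes, and Suclg1 had the largest, 0.28. With TPM scaled over nuclear protein-coding genes, or with counts scaled by depth alone, 8 of 9 were higher in replicate 2, so the direction of these small differences depends on the scaling.

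Of the genes listed around the cycle, 33 of 34 had a mean of 1 TPM or more, and 4 of these were 1.5-fold or more apart, which is 12.1% beside the 10.8% of all genes. They were 2 relatives and 2 genes of entry, exit and exchange, all higher in replicate 2 and singled out after their values were seen, and none was among the 10 other cycle genes or the 4 assembly factors. Slc25a1, which exports citrate to the cytosol, had 2.47 and 14.7 TPM. Acly, which splits that citrate for lipid synthesis, had 9.52 and 31.5 TPM. Pcx, which makes oxaloacetate from pyruvate, had 19.01 and 37.5 TPM. Dhtkd1, a relative of Ogdh, was low, with 1.28 and 1.98 TPM, just past 1.5-fold, and was under it in the kallisto-layout table with 1.37 and 1.67 TPM. Mdh1b, with 0 and 4 counts, did not reach a mean of 1 TPM and was not counted. Adipocyte markers moved in the same direction as Slc25a1, Acly and Pcx, with all 7 higher in replicate 2, a median log2 ratio of 3.17, Adipoq at 2.28 and 25.1 TPM, Ucp1, the uncoupling protein of brown fat, at 3.52 and 41.8 TPM, and Lep near 0 in both (0.03 and 0.04 TPM). Of 4 airway markers, 3 were also higher in replicate 2. So were all 4 fibroblast markers, with a median log2 ratio of 0.26 and 0 of them 1.5-fold or more apart. The part of any of these marker lists in these differences was not tested. All 5 erythroid markers moved the other way. All 4 endothelial markers were also lower in replicate 2, with a median of -0.085 and 1 past 1.5-fold, but 2 were higher in the kallisto-layout table. The 8 cardiomyocyte markers had a median of -0.069, and the largest ratio among the 9 cycle genes, without its sign, was 0.052.

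**Figure D4:**
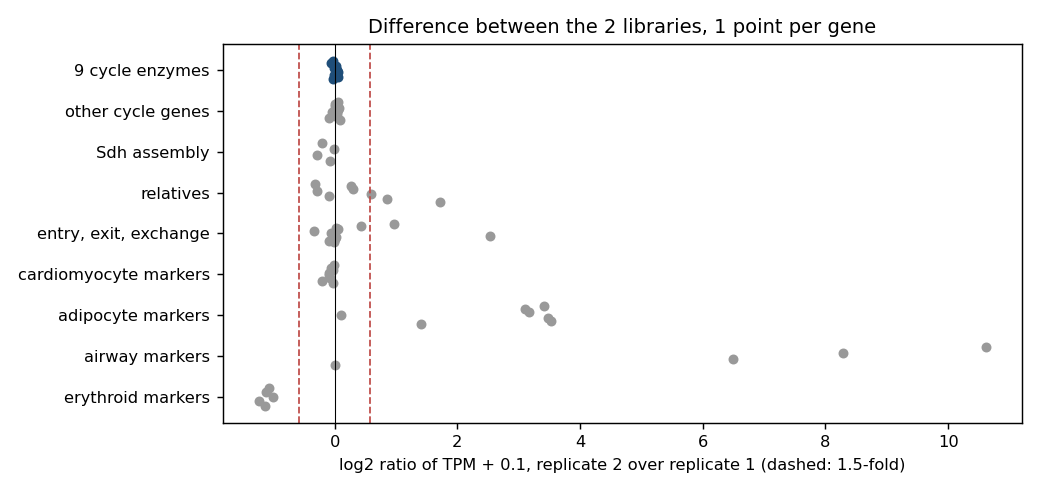
Log2 ratio of TPM + 0.1, replicate 2 over replicate 1, with 1 point per gene and dashed lines at 1.5-fold. The 9 cycle genes cluster at 0 between -0.05 and 0.05, while 6 of 7 adipocyte and 3 of 4 airway markers lie beyond 1.5-fold to the right and all 5 erythroid markers beyond it to the left; airway markers at 0 in replicate 1 are placed by the pseudocount.

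By level alone, 2 of the 3 nuclear protein-coding genes nearest to the mean profile of the 9 genes over 4 values (both libraries in both tables) were Atp5d, the delta subunit of ATP synthase, and S100a1, a calcium-binding protein of heart muscle. Their distances on the log2 scale were 0.099 and 0.10. With 2 libraries this is likeness in level and not in pattern.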

How the data were processed

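Values came from 3 tables per library, on mm10 and GENCODE M21 per the deposited readme. The authors deposited expected counts, TPM, posterior mean TPM and, as a percent, how a gene's TPM divides over its transcripts, in RSEM-layout tables derived from transcriptome alignments. They also deposited estimated counts and TPM in a kallisto-layout transcript table derived from the reads. The layouts are named from the file headers; the programs, their versions and the use of strand in counting were not given in the sources used here. Labels give 300 ng of RNA and ERCC spike-ins per library. Members and lists were chosen with earlier results of these data known.

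Kallisto-layout TPM were summed per gene. Ratios used a pseudocount of 0.1, and genes at a mean of 1 TPM or more were the background. The rule for names took the members, their pair partners, the ends of each list, transcripts leading a table or holding 20% or more of a gene, and the 3 nearest genes. Mrps36, the shuttle carriers, the genes 1.5-fold apart, the further pairs with Dlst, Dld, Sdhc, Sdhd and Got2, Sdha-203 and Sdha-204 were named after their values were seen. Complete coding transcripts are protein-coding and lack GENCODE's tags for an unfinished coding start or end. Size factors came from edgeR 4.0.16 and DESeq2 1.42.0, on genes with rounded expected counts of 10 or more in both libraries. A few genes that the rule names are not reported here. The 1.5-fold call was tested on simulated data.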

Additional observations from a re-analysis of the deposited data

How the results depend on the processing

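The absence of members 1.5-fold or more apart held in all 8 alternatives run on it, with 0 of 9 in each. The largest log2 ratio among the 9 genes was 0.052 without its sign. Alternatives that only rescale a library or raise the pseudocount could therefore hardly have changed the count. The background share was 24.5% with no filter on low values. The median TPM of 396 was 412 in the kallisto-layout table, 387 as posterior mean, 974 when scaled over nuclear protein-coding genes and 701 in CPM, which has no correction for length; leaving out each replicate gave 391 to 401. The log2 ratio of Idh2 over Idh3a was 1.74 in the kallisto-layout table, 1.54 in CPM and 2.77 over complete coding transcripts, an alternative chosen after seeing the data. That of Sucla2 over Suclg2 was 2.18 with posterior means, 2.18 with a pseudocount of 1, 1.72 in CPM and 2.16 over complete coding transcripts. Sdha over Sdhb reversed to -0.31 in the kallisto-layout table and to -0.11 over complete coding transcripts, and was 1.35 in CPM. The counts are not corrected for length. Complete coding transcripts held 468 of 606 TPM for Sdha and 505 of 508 TPM for Sdhb. The cause of the reversal in the kallisto-layout table was not tested. Leaving out each replicate gave 1.88 to 1.95, 2.19 to 2.21 and 0.25 to 0.27 for the 3 ratios. The median log2 ratio between libraries, -0.015, was 0.077 in the kallisto-layout table, 0.032 when scaled over nuclear protein-coding genes and 0.034 in CPM. No paired analysis was possible because there is 1 group and no contrast. With 2 libraries, an SD is only a rough measure of spread.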
